A study of Arabidopsis thaliana with 4 samples.

Results

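RPT2, NPH3 and the 4 phytochrome kinase substrate genes PKS1 to PKS4 of Arabidopsis thaliana encode proteins that work beside the phototropins in the bending of seedlings toward light. They were chosen by their locus identifiers, and all 6 were found among the 27416 gene models of the files. The study compared Col-0 wild-type seedlings (genotype WT) grown in red light (60 µmol m-2 s-1) with seedlings of the same genotype grown in darkness, with 2 samples in each group. Both groups shared the same start on Murashige-Skoog plates with 1% sucrose, namely 4 days at 4 °C and 12 h of white light. They then spent 4 days in red light or darkness, which gave a growth time of 4.5 days, and RNA was taken from seedlings. Neither group was given blue light after the white-light start.

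Phototropins are blue-light receptor kinases of the plasma membrane, and light falling from one side leads, through them, to an uneven flow of auxin and to bending. NPH3 and RPT2 are related BTB-domain proteins that bind phototropin 1, and NPH3 acts as the substrate adaptor of a CUL3 ubiquitin ligase and is needed for hypocotyl bending. RPT2 is needed for phototropism in brighter light and is known as a light-inducible gene. Some PKS proteins bind phytochromes as well as phototropin 1 and NPH3, and so connect the red-light and the blue-light receptors.

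The files held 1 column of reads and 1 of RPKM for each condition, with 33521717 reads in red light and 41106535 in darkness. RPKM is a read number scaled by the length of the gene model and by the depth of the column, and the lengths used were coding lengths. The sources used here do not say how the 2 replicates of a group entered its column. Values below therefore come without replicate error, differences could not be checked against replicates, and there are no p-values. Brackets hold exact 95% intervals that cover counting error only. They treat reads as independent and may be too narrow, since several reads may stem from 1 molecule. A gene was called higher or lower at a 2-fold difference on RPKM + 1 where the larger of its values reached 10 RPKM. In whole seedlings, fewer cells of a type and less RNA per cell cannot be told apart. All 10 root marker genes had reads in both conditions, their summed level was 100.003 RPKM in red light and 120.968 RPKM in darkness, and none of the 4 that reached 10 RPKM was called. PRP3 was the most abundant, with 26.2 RPKM in red light and 40.7 RPKM in darkness. SCR had 24.5 RPKM in red light and 18.8 RPKM in darkness, and SHR had 23.8 RPKM in red light and 25.8 RPKM in darkness. PIN2, the last of the 4, had 11.5 RPKM in red light and 18.8 RPKM in darkness, a ratio of 0.609 (0.557 to 0.665). Their part in the results was not tested.

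RPT2 and PKS1 had far higher levels in red light than in darkness, PKS3 had a higher value at a low level, NPH3 and PKS2 differed little, and PKS4 was below its dark level. By the rule, 2 of the 6 genes were called higher (RPT2 and PKS1) and 0 lower, while PKS3 stayed below 10 RPKM in both conditions and could not be called. Over all 12625 genes that could be called, 8.69% were higher and 5.35% lower in red light. With 5 genes that could be called, the share among them is only a description.

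The 250 bases before the annotated transcript start are shown for the 3 genes with the higher levels in red light and for PKS2, the closest relative of PKS1. They come from the RefSeq genome TAIR10.1, are written 5′ to 3′ on the gene's strand, and end at the base before the start of the transcript model in the files. Capitals mark ACGT, the core shared by many light-response elements, and GATAAG on either strand, the I-box.
RPT2, chr2:13005747-13005996, minus strand: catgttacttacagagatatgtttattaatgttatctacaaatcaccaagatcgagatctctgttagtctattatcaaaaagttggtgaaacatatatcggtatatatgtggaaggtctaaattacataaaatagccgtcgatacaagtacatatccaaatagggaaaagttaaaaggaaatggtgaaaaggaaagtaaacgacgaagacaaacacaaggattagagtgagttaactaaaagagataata
PKS1, chr2:856726-856975, minus strand: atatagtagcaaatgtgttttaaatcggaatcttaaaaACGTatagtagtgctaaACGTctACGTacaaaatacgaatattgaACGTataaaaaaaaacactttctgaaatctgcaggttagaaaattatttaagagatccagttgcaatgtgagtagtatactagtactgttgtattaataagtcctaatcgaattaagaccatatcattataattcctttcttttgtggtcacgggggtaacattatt
PKS3, chr1:6487154-6487403, minus strand: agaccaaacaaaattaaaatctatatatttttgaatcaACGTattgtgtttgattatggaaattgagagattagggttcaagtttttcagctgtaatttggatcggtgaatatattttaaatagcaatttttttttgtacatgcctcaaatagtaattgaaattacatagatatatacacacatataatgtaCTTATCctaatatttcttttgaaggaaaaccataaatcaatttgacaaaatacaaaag
PKS2, chr1:4877256-4877505, plus strand: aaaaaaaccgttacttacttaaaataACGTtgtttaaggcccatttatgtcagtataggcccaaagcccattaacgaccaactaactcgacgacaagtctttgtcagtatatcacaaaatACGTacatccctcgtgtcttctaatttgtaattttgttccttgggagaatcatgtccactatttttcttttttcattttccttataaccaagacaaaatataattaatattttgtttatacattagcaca

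The PKS1 window held 4 ACGT cores, at 212, 195, 189 and 167 bases before the start. At least 4 were present in 1.24% of the 26690 windows of this length, and at least 1 in 44.3%. The PKS2 window held 2 cores, at 224 and 130 bases, and the PKS3 window 1 core, at 212 bases. A GATAAG match stood only in the PKS3 window, 58 bases before the start on the other strand, against 12.4% of all windows. The RPT2 window held no match to any motif searched, and neither did those of NPH3 and PKS4. No window of the 6 genes held the G-box CACGTG, which contains the ACGT core and occurred in 6.74% of all windows. None held CACATG, which occurred in 11.0%, or the evening element AAAATATCT, which occurred in 2.36%, on either strand. RPT2 and NPH3 have 3 annotated mRNAs each, which do not all share a start, and only the window of the model in the files was searched.

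RPT2 (AT2G30520, chromosome 2, 13002727 to 13005746, minus strand, 4 exons, coding length 1782 bases) had 28070 reads in red light and 3123 reads in darkness. These gave 469.9 RPKM in red light (464 to 475) and 42.6 RPKM in darkness (41.2 to 44.2). RPT2 was thus 11.0-fold higher in red light (10.6 to 11.4), a log2 change of 3.43 on RPKM + 1. Its change lay at percentile 99.5 of the 12625 genes that could be called. In the order of levels over all gene models, RPT2 was number 297 in red light and number 4342 in darkness.

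NPH3 (AT5G64330, chromosome 5, 25727126 to 25730358, plus strand, 6 exons, coding length 2241 bases) had 2726 reads in red light and 3651 reads in darkness. Its level was 36.3 RPKM in red light (34.9 to 37.7) and 39.6 RPKM in darkness (38.4 to 40.9). The ratio of red light to darkness was 0.916 (0.871 to 0.962). At the depth scaling used here the counting interval lay below 1, while the difference was far from the 2-fold threshold. The log2 change of NPH3, -0.12, was close to the median of -0.11 over all genes that could be called. With TMM factors or DESeq2 size factors it was -0.06, and no interval was computed for these.

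The ratio between the transcripts of these 2 related proteins differed between conditions. Per coding length, RPT2 stood at 12.9 times the level of NPH3 in red light (12.4 to 13.5) and at 1.08 times in darkness (1.03 to 1.13). RPT2 made up 92.8% of their summed RPKM in red light and 51.8% in darkness. The coding sequences of RPT2 and NPH3 were 53.8% identical over 1780 aligned bases and shared no 31-base word.

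**Figure D1:**
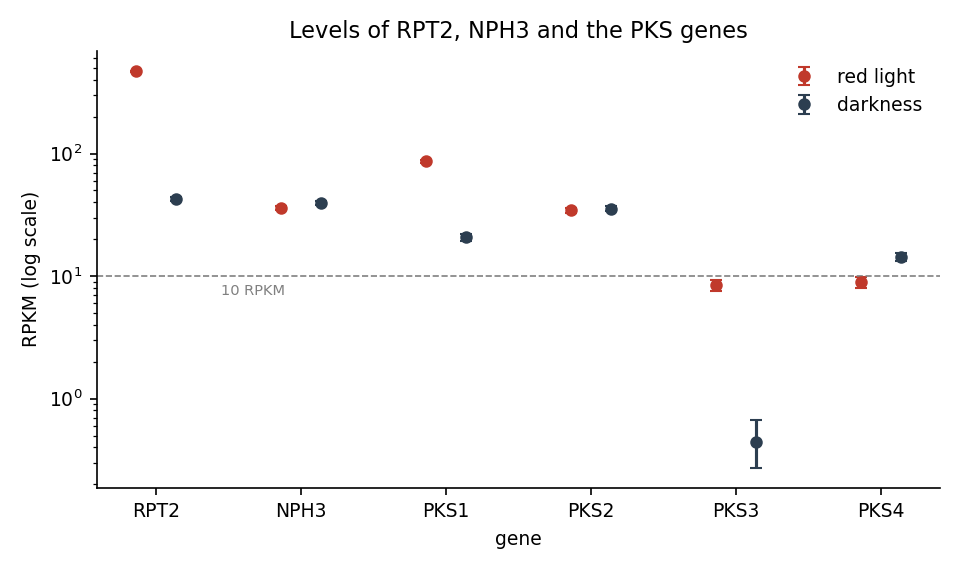
RPKM (log scale) of RPT2, NPH3 and PKS1 to PKS4 in red light (red) and darkness (dark blue), 1 column of values per condition. Bars are exact 95% counting intervals, and the dashed line marks 10 RPKM. RPT2 stood at 469.9 RPKM in red light and 42.6 RPKM in darkness, while the points of NPH3 and of PKS2 lay at nearly the same height in both conditions.

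PKS1 (AT2G02950, chromosome 2, 854077 to 856725, minus strand), which was found as a substrate of phytochrome kinase activity and binds phytochromes A and B, had 3818 reads in red light and 1124 reads in darkness. Its level was 86.3 RPKM in red light (83.6 to 89.1) and 20.7 RPKM in darkness (19.5 to 22.0). PKS1 was 4.17-fold higher in red light (3.90 to 4.46), with a log2 change of 2.01 at percentile 96.9 of the genes that could be called.

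PKS2 (AT1G14280, chromosome 1, 4877506 to 4879307, plus strand), which forms complexes with phototropins and NPH3, had 1533 reads in red light and 1943 reads in darkness. Its level was 34.4 RPKM in red light (32.7 to 36.2) and 35.6 RPKM in darkness (34.0 to 37.2). The ratio was 0.968 (0.904 to 1.04), an interval that includes 1, and the sign of its log2 change of -0.05 turned to 0.02 with TMM or DESeq2 size factors.

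PKS1 and PKS2 were the most alike pair of the 4 in coding sequence, with 76.0% identity over 1221 aligned bases. The other 5 pairs had 53.8% to 58.7% identity. Only 0.310% of the 31-base words of PKS1 and 0.308% of those of PKS2 occurred in another gene.

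PKS3 (AT1G18810, chromosome 1, 6485515 to 6487153, minus strand), annotated in RefSeq as a phytochrome kinase substrate-like protein, had 328 reads in red light and 21 reads in darkness. Its level was 8.41 RPKM in red light (7.52 to 9.37) and 0.439 RPKM in darkness (0.272 to 0.671). The ratio of 19.2 was the highest of the 6 genes but the least precise (12.3 to 31.4). With the minimum lowered to 5 RPKM, PKS3 joined RPT2 and PKS1 as called higher, beside 8.24% of 15518 genes, and with no minimum beside 5.33% of all gene models. It reached 5 RPKM only in red light, the condition where it was higher.

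PKS4 (AT5G04190, chromosome 5, 1150886 to 1152627, plus strand), a protein phosphorylated in a phototropin 1-dependent manner, had 363 reads in red light and 721 reads in darkness. Its level was 8.87 RPKM in red light (7.98 to 9.83) and 14.4 RPKM in darkness (13.3 to 15.5). The ratio was 0.617 (0.543 to 0.701), short of the 2-fold threshold. At a 1.5-fold threshold PKS4 was called lower, as were 15.3% of all genes that could be called. It reached 10 RPKM only in darkness, the condition where it was higher.

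**Figure D2:**
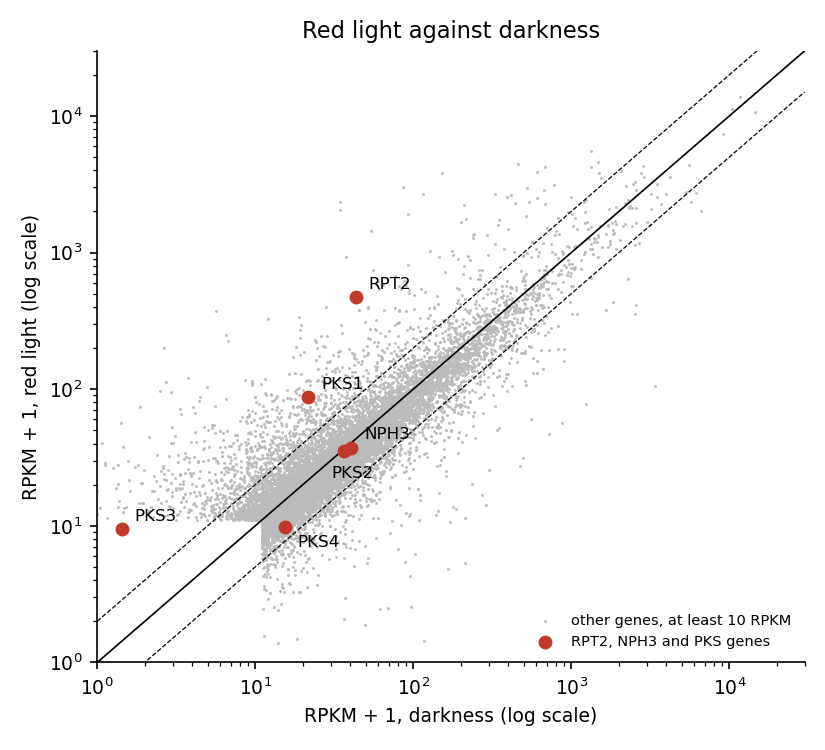
RPKM + 1 in red light (vertical) against darkness (horizontal), both on log scales, for all genes that reached 10 RPKM in a condition (grey) and for the 6 genes (red). The solid line marks equal values and the dashed lines a 2-fold difference. RPT2, PKS1 and PKS3 lay above the upper dashed line, and NPH3, PKS2 and PKS4 between the dashed lines.

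The 4 PKS genes together had 138 RPKM in red light and 71.1 RPKM in darkness, a ratio of 1.94, and their order differed. PKS1 held 62.5% of the summed RPKM in red light and 29.1% in darkness. PKS2 held 24.9% in red light and 50.0% in darkness. PKS4 held 6.43% in red light and 20.2% in darkness, and PKS3 6.09% in red light and 0.617% in darkness. PKS1 was thus the leading PKS transcript in red light, and PKS2 in darkness. The sums and shares rest on coding length, which leaves out the long untranslated regions of PKS1, and were not computed per full transcript length. On that scale PKS1 still led in red light, at 43.0 against 25.4 for PKS2. In darkness PKS2 led there too, at 26.2 against 10.3 for PKS1.

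**Figure D3:**
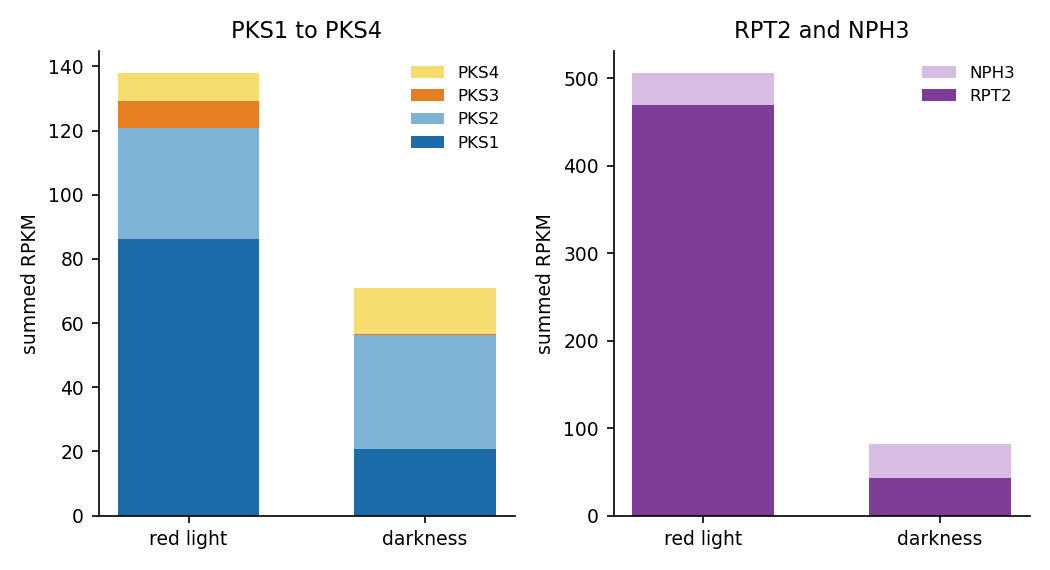
Summed RPKM of PKS1 to PKS4 (left) and of RPT2 and NPH3 (right) in red light and in darkness, stacked by gene, with axes that start at 0. The PKS sum was 138 RPKM in red light and 71.1 RPKM in darkness, and the added height in red light came mostly from PKS1, as that of the right panel came from RPT2.

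From highest to lowest level, the order in red light was RPT2, PKS1, NPH3, PKS2, PKS4 and PKS3. In darkness it was RPT2, NPH3, PKS2, PKS1, PKS4 and PKS3. The order rests on coding length. PKS1 has the longest untranslated regions, 1329 of its 2649 transcript bases, and per full transcript length its level was 43.0 in red light and 10.3 in darkness, in the same place of both orders. On that scale PKS1 and PKS4 could not be separated by counting error in darkness, with a ratio of 1.03 (0.933 to 1.13). Per coding length, neighbours that counting error could not separate were NPH3 and PKS2 in red light, with a ratio of 1.05 (0.990 to 1.12), and PKS3 and PKS4 in red light, with a ratio of 0.948 (0.814 to 1.10). In darkness RPT2 and NPH3 were close, at a ratio of 1.08, but their interval excluded 1. None of the coding sequence of the 6 genes lay inside the span of another gene, although 7.13% of the PKS1 transcript and 0.852% of the NPH3 transcript did.

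The receptors that these proteins serve moved in opposite directions. PHOT1, phototropin 1, had 67.0 RPKM in red light and 156 RPKM in darkness, 2.33-fold lower in red light (2.26 to 2.39). PHOT2, phototropin 2, which acts mainly in stronger blue light, had 114 RPKM in red light and 23.4 RPKM in darkness, 4.85-fold higher (4.65 to 5.07). PHOT2 was the more abundant of the pair in red light, with PHOT1 at 0.589 times its level, whereas PHOT1 stood at 6.65 times the level of PHOT2 in darkness.

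Against PHOT1, RPT2 reached 7.01 times its level in red light (6.83 to 7.20) and 0.273 times in darkness (0.263 to 0.284). NPH3 stood at 0.541 times the level of PHOT1 in red light and at 0.254 times in darkness. Per coding length, PKS1 stood at 1.29 times the level of PHOT1 in red light and at 0.133 times in darkness. Per full transcript length, these ratios to PHOT1 were not computed. The phytochromes that bind PKS1 differed too. PHYA, the phytochrome of etiolated seedlings, fell to 159 RPKM in red light, against 601 RPKM in darkness, and PHYB, the main red-light receptor of green plants, had 36.3 RPKM in red light and 24.7 RPKM in darkness without a call. The cryptochromes were not called, with CRY1 at 76.7 RPKM in red light and 69.7 RPKM in darkness and CRY2 at 126 RPKM in red light and 146 RPKM in darkness. Of these 6 photoreceptors, 1 rose and 2 fell, where 8.69% of all genes that could be called were higher and 5.35% lower.

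RPT2 and NPH3 belong to a family of 33 genes that RefSeq annotates as phototropic-responsive NPH3 family proteins. Of the other 31, 2 rose, none fell, 8 were not called and 21 stayed below 10 RPKM in both conditions. For comparison, 8.69% of all genes that could be called were higher and 5.35% lower. The median log2 change over all 31 was 0.11, and the median over all 27416 gene models was 0. The latter includes 14791 gene models below 10 RPKM in both conditions, many of them with few or no reads. Over the 10 family genes that could be called the median was 0.24, against -0.11 over all genes that could be called. The family summed to 884 RPKM in red light and 334 RPKM in darkness, a ratio of 2.64. Without RPT2 it summed to 414 RPKM in red light and 292 RPKM in darkness, a ratio of 1.42. RPT2 alone held 53.2% of the family sum in red light and 12.8% in darkness.

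In order of level within the family, RPT2 was number 1 in red light and number 3 in darkness, and NPH3 was number 5 in red light and number 4 in darkness. AT5G67385, the best protein match of RPT2 in its RefSeq note, had the next largest log2 change in the family, with 101 RPKM in red light and 18.0 RPKM in darkness, 5.60-fold higher (5.28 to 5.95). AT3G15570 had 20.6 RPKM in red light and 4.64 RPKM in darkness, 4.44-fold higher (3.87 to 5.12), and could be called only through its level in red light. The leading gene in darkness was NPY5, a family member that acts with PINOID in auxin-dependent organ formation, with 52.9 RPKM in red light and 57.7 RPKM in darkness.

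**Figure D4:**
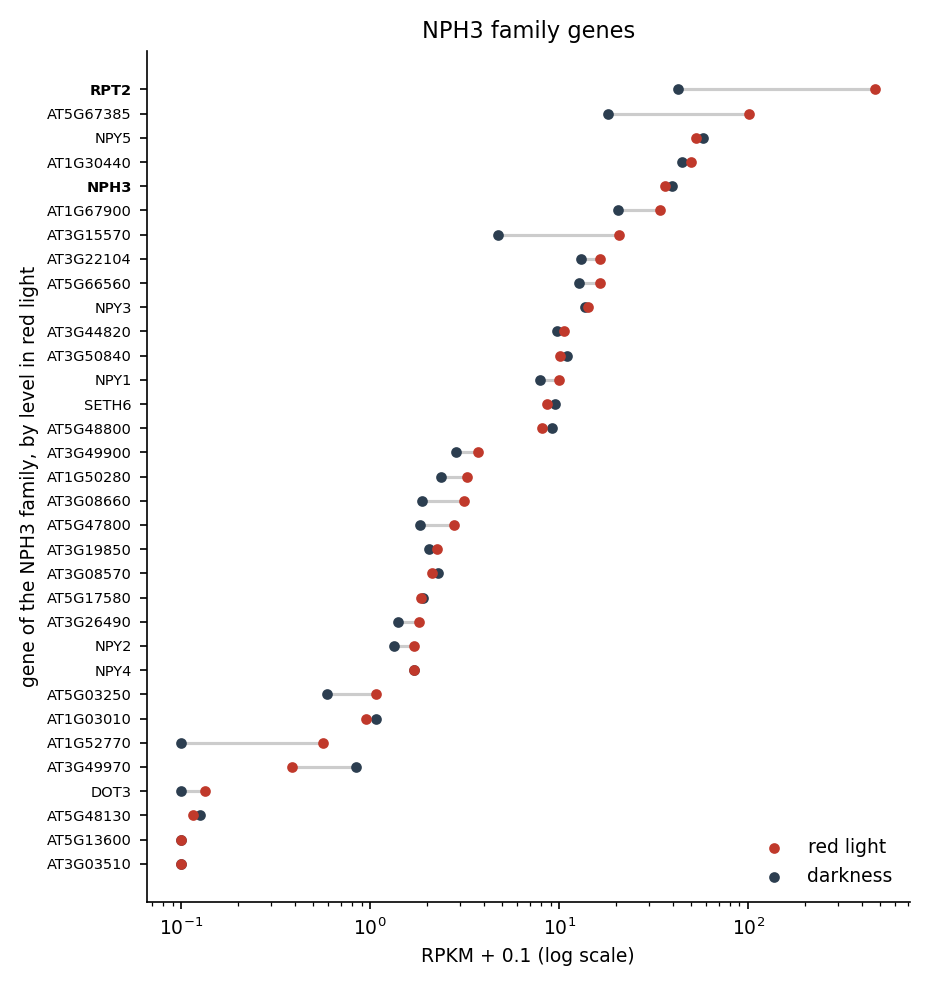
RPKM + 0.1 (log scale) of the 33 genes of the NPH3 family in red light (red points) and darkness (dark blue points), joined by a line for each gene and ordered by level in red light. RPT2 and NPH3 are in bold. The long lines among genes above 10 RPKM belong to RPT2, AT5G67385 and AT3G15570, and the points of NPH3 nearly touch.

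The ubiquitin ligase core that NPH3 recruits was not called. CUL3A, a cullin scaffold, had 44.0 RPKM in red light and 57.5 RPKM in darkness, and CUL3B, its second copy, had 13.7 RPKM in red light and 14.9 RPKM in darkness. RBX1, the RING partner of cullins, had 96.7 RPKM in red light and 118 RPKM in darkness. The log2 changes of the 3 genes lay between -0.38 and -0.12.

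Among 13 genes of auxin transport and response in hypocotyl bending, none rose, 3 fell, 9 were not called and 1 stayed below 10 RPKM. The shares over all genes that could be called were 8.69% higher and 5.35% lower. The median log2 change over all 13 was -0.25, against 0 over all gene models, most of which stayed below 10 RPKM. Over the 12 that could be called it was -0.18, nearer to the -0.11 over all genes that could be called. WAG1 and WAG2, protein kinases related to PINOID that phosphorylate PIN auxin carriers, were at 2.77 and 6.80 RPKM in red light and at 13.8 and 27.1 RPKM in darkness. Both could be called only through their levels in darkness. IAA19, an auxin-response repressor that is known as a target of phototropic signalling, fell 3.55-fold (3.35 to 3.77), to 67.6 RPKM in red light against 240.2 RPKM in darkness. The carriers PIN3, PIN4, PIN7 and ABCB19 had log2 changes of 0.05, -0.25, -0.09 and -0.32 and were not called.

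The list of other phototropin outputs held 11 genes, most of them in chloroplast movement. Of these, 5 rose, none fell, 4 were not called and 2 stayed below 10 RPKM. Over all genes that could be called, 8.69% were higher and 5.35% lower. The median log2 change over all 11 was 0.32, against 0 over all gene models, most of which stayed below 10 RPKM. Over the 9 that could be called it was 1.54, against -0.11 over all genes that could be called. Some of these 9 could be called only through red light, as given below. PMI2, a coiled-coil protein of chloroplast movement, had 25.7 RPKM in red light and 1.61 RPKM in darkness, 15.9-fold higher (13.2 to 19.3). AT1G64500, annotated as a glutaredoxin family protein of light-stimulated actin bundling and chloroplast movement, had 129 RPKM in red light and 16.8 RPKM in darkness, 7.68-fold higher (7.12 to 8.30). KAC1, a kinesin-like protein of the chloroplast actin filaments, had 45.3 RPKM in red light and 6.44 RPKM in darkness. JAC1, a J-domain protein of chloroplast accumulation, and CHUP1, which anchors chloroplasts, also rose. PMI2, KAC1 and JAC1 had less than 10 RPKM in darkness and could be called only through red light.

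**Figure D5:**
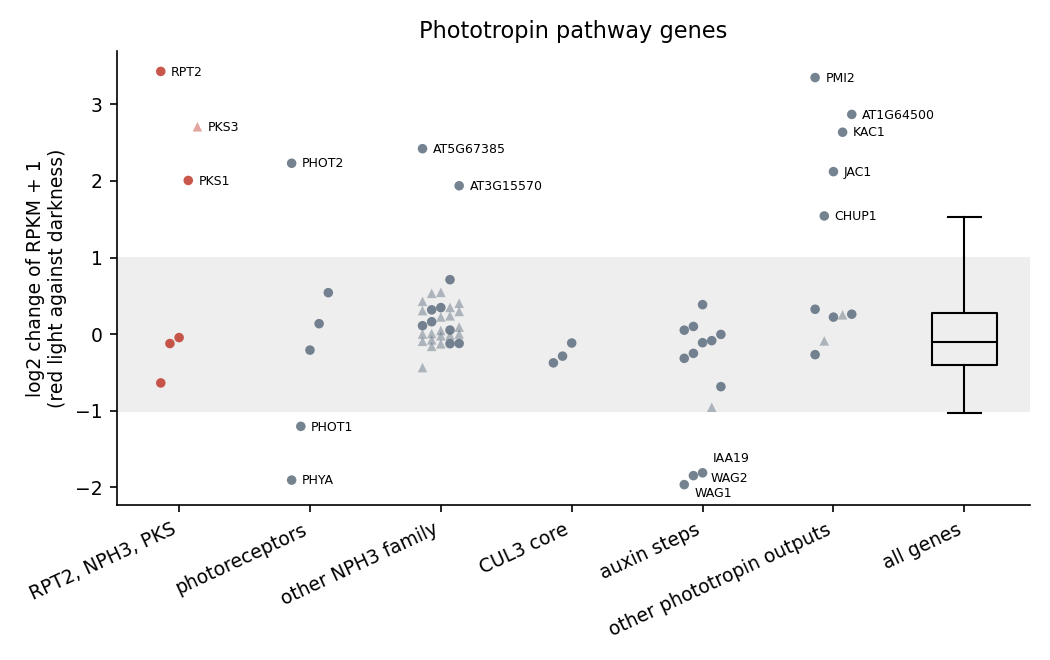
Log2 change of RPKM + 1, red light against darkness, for RPT2, NPH3 and the PKS genes (red) and for 5 groups of genes of the phototropin pathway (grey). Circles are genes that reached 10 RPKM in a condition and triangles the rest; the shaded band lies within 2-fold, and the box shows the median, quartiles and 5th to 95th percentiles of the 12625 genes that could be called. RPT2, at 3.43, and PMI2, at 3.35, are the highest points, but this depends on the pseudocount. Without it RPT2 was 11.0-fold, PMI2 15.9-fold and PKS3, plotted at 2.71, 19.2-fold higher.

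The genes with a symbol that were closest to each of the 5 genes that could be called were found by the distance in log2(RPKM + 1), over 2 values for each gene. For RPT2 the nearest were CRB and EXPA1, at distances of 0.31 and 0.34, and none lay within 0.1. For PKS1 they were EXPA10 and HSP70, at 0.08 and 0.11, with 1 gene within 0.1. By contrast, 38 genes lay within 0.1 of NPH3 (nearest HOS15 and UBP12), 23 within 0.1 of PKS2 (NIK1 and GL22) and 27 within 0.1 of PKS4 (LpxC4 and bZIP68). All of the 31-base words of LpxC4 (100%) occur in another gene, so its value is uncertain. With 2 columns such closeness states only that level and change were alike.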

How the data were processed

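Per the labels, poly(A) RNA from 4 samples of Arabidopsis seedlings, 2 per condition, was made into Illumina libraries. Per the submitters' processing notes, TAIR10 was the build. Neither the aligner and counter nor the use of strand is stated in the sources used here. The authors deposited estimated counts, which were whole numbers except for 0.5 in place of 0 (4164 genes in red light and 4059 in darkness), set back to 0 here. The deposited RPKM values equalled reads scaled to whole reads per column and to lengths that were whole within 0.01 bases. Since 99.99% of them divide by 3, they are read as coding lengths. At the median length of 1047 bases, 10 RPKM is 351 reads in red light and 430 reads in darkness.

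With 1 column per condition no test was made: edgeR's quasi-likelihood test, kept for files with a column per sample, could not be run. Calls used a pseudocount of 1, a minimum of 10 RPKM and a 2-fold threshold. They were tried on simulated reads with counting error only, which cannot show how they fare with variation between samples. Ratios in the text leave out the pseudocount. Intervals are Clopper-Pearson (ratios) and exact Poisson (levels). The members and lists were chosen with earlier results of these data known. Named genes were the 6 members, 6 photoreceptors, CUL3A and CUL3B, up to 3 called genes per direction in each list or, with none called, its 2 most abundant, and the 2 nearest named genes of each member of at least 10 RPKM. RBX1, NPY5, SHR, PIN2, JAC1, CHUP1, PIN3, PIN4, PIN7 and ABCB19 were added after their values were seen. Gene models were located in RefSeq TAIR10.1 by transcript identifier (26691 of 27416), and all 6 members had the coding length implied by the files. That PKS3 is AT1G18810 comes from the member list, since RefSeq gives this locus no symbol. Coding sequences were aligned globally in place of the protein sequences first intended, which were not used here. Alternatives used TMM factors (edgeR 4.0.16), size factors (DESeq2 1.42.0), upper-quartile and quantile scaling, other thresholds and minimum values, and a total without organelle genes. Intervals came from scipy 1.17.1, alignments from Biopython 1.88 and figures from matplotlib 3.10.9, under Python 3.11.15; R was version 4.3.3.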

Additional observations from a re-analysis of the deposited data

How the results depend on the processing

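No paired analysis was possible because each condition has 1 column, and no replicate could be left out for the same reason. Under 12 alternatives, RPT2 and PKS1 were called higher in each, and PKS3 joined them at a minimum of 5 RPKM and with no minimum, which gave 3 genes. The number called lower was 0, except 1 (PKS4) at a 1.5-fold threshold. Under the 6 alternatives of scaling and pseudocount, the log2 change was 3.43 to 3.50 for RPT2, 2.00 to 2.08 for PKS1, 2.67 to 3.98 for PKS3, -0.13 to -0.06 for NPH3, -0.05 to 0.02 for PKS2 and -0.69 to -0.58 for PKS4. The highest value of PKS3 came with a pseudocount of 0.1, since it had 21 reads in darkness. With a length that includes untranslated regions, an alternative chosen after seeing the data, all levels were lower and the order of the 6 genes in each condition was the same, but counting error could not separate PKS1 from PKS4 in darkness and did separate NPH3 from PKS2 in red light, at 1.14 (1.07 to 1.21). None of these values measures how much seedlings of 1 condition vary.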
